A study of Mus musculus with 4 samples.

Results

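Arteries deliver blood to the glomeruli, and the endothelial cells that line them differ from those of capillaries and veins in the connexins, transcription factors and secreted matrix they make. The cells described here were endothelial cells of developing mouse kidneys with transcripts of the arterial genes Gja5 and Sox17 and their partners. In each library, a cell was taken when it had at least 500 genes, at most 20% mitochondrial UMIs, UMIs of at least 2 of the endothelial genes Pecam1, Cdh5 and Egfl7, and UMIs of at least 2 of Gja4, Gja5, Sox17, Bmx and Hey1. A UMI is a molecular tag that counts 1 captured mRNA molecule. The rule took 1290 cells, among 22838 cells that passed the filters on genes and mitochondrial share. They were thus chosen by measured UMIs of these 8 genes. They are called the selected endothelial cells, and the 1770 further cells that met only the endothelial condition are called the other endothelial cells.

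The study set transplanted embryonic kidneys beside kidneys developing in place, by droplet 3′ single-cell RNA-seq with 1 library a condition. The E15.5 and P0 libraries came from wild-type ICR kidneys and the E17.5 library from wild-type C57BL/6 kidneys, all whole kidneys of the named age. The transplant library came from wild-type E12.5 kidneys of C57BL/6N embryos that had spent 12 days in the epididymal fat of a host mouse. The labels give the host both as an immunodeficient NOD mouse and as C57BL/6N, and endothelial cells of the host cannot be told apart from those of the graft here. How many embryos were pooled is not given in the sources used here. With 1 library a condition, age, strain, site and handling cannot be told apart between libraries, and no test between libraries was possible. The tests below compare classes of cells within libraries, with the 4 libraries as replicates of the difference between classes. Their p-values measure the spread between these 4 libraries. For single genes this spread was partly estimated over all genes tested. Intervals given with single libraries are exact 95% intervals that cover counting error only.

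Arterial endothelium is specified by VEGF and Notch signalling, with SOXF factors such as SOX17 acting upstream of connexin and ephrin genes. Gja5 encodes connexin 40 and Gja4 connexin 37, which form gap junctions between arterial endothelial cells. Gja5 is also known from the renin-producing cells of the afferent arteriole. Hey1 is a Notch target, Bmx a tyrosine kinase of arterial endothelium, and Sox17 a transcription factor that marks arteries but is also made by other embryonic endothelium. Elastic arteries build a wall of elastin laid on fibulins and fibrillins, whereas fenestrated capillaries carry the diaphragm protein encoded by Plvap.

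In GRCm38 (GENCODE M21), Gja5 lies at chr3:96904693-97077416 on the plus strand, Gja4 at chr4:127311421-127314039 on the minus strand and Sox17 at chr1:4490931-4497354 on the minus strand. The 250 bases before the annotated RefSeq starts (GRCm38.p6) of Gja5 (chr3:97032152-97032401, plus strand, inside the body of the longer gene model) and Gja4 (chr4:127314040-127314289, minus strand) are shown because the connexin classes below rest on these genes. Capitals mark the longest run of letters the pair share, 11 bases that start 41 bases before the Gja5 start and 151 bases before the Gja4 start. The run was picked after the letters were compared. It stood in the windows of 4 of 27025 genes (0.0148%), which were Gja5, Gja4, Dao and Vps4a.
Gja5: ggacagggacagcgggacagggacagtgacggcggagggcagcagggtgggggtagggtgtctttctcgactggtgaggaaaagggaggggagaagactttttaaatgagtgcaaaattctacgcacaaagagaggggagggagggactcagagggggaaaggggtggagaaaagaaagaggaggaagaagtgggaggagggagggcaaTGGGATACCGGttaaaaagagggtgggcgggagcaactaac
Gja4: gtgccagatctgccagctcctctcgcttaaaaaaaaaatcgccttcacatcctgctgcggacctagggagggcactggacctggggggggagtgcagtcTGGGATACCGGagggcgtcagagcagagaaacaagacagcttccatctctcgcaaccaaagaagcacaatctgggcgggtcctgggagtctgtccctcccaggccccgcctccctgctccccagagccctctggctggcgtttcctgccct
The corresponding windows of Hey2 (chr10:30842784-30843033, minus strand), a Notch target, and Fbln5 (chr12:101819120-101819369, minus strand), which encodes the elastic-fibre protein fibulin 5, are shown because both genes were higher in Gja5-detected cells below and their windows held the letters marked. The windows of a second Fbln5 start and of Sema3g, also higher in those cells, held none, and that of Cxcl12 held 1 match. Capitals mark TGGGAA or its complement TTCCCA, the core letters bound by the Notch effector RBPJ.
Hey2: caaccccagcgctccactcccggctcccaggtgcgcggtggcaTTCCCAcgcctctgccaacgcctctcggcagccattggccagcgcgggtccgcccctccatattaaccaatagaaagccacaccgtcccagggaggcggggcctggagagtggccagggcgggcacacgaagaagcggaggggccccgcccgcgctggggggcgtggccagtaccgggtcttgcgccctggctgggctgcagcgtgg
Fbln5: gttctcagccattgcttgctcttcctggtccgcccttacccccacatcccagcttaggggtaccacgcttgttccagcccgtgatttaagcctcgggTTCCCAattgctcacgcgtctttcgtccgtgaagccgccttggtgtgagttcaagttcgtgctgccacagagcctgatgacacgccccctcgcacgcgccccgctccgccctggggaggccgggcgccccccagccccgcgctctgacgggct
These letters on either strand were in the windows of 26.4% of the 345 genes higher in Gja5-detected cells, 19.2% of the 308 genes lower in them and 23.5% of the 7784 tested genes with a window. Among higher genes they stood in 5 of 9 vessel wall matrix genes and in 1 of 6 Notch pathway genes. A match is a description of letters and not a binding site.

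Of the selected cells, 118 came from E15.5, 231 from E17.5, 580 from P0 and 361 from the transplant. They made up 21.9% (18.5 to 25.7) of the E15.5 endothelial cells, 43.7% (39.4 to 48.0) of those of E17.5, 51.4% (48.4 to 54.3) of those of P0 and 41.8% (38.5 to 45.2) of those of the transplant. With all UMIs the E15.5 share was below the interval of each of the other libraries. Detection depends on depth. After every cell was thinned to 3000 UMIs before the rule, the shares were 23.1%, 25.4%, 34.5% and 27.7%. The thinned E15.5 share lay within the thinned E17.5 interval (21.2 to 29.98) and below those of P0 and the transplant. Thinned, 186 E15.5 cells met the endothelial condition, against 538 with all UMIs. The median selected cell held 34109, 13118, 12049 and 8997 UMIs at E15.5, E17.5, P0 and in the transplant. The other endothelial cells held 28750, 8014, 8114 and 6307.

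Sox17 was the gene through which most cells entered: 93.3% of the selected cells had a UMI of it, 77.4% of Hey1, 65.3% of Gja4, 27.3% of Gja5 and 8.99% of Bmx. Just inside the rule were 683 cells with exactly 2 of the 5 genes, of which 395 had Sox17 and Hey1. Just outside it were 1028 endothelial cells with 1 gene, and 742 had none. The shares of these 5 genes describe the rule and are not findings. Sox17 was also detected in 18.8%, 48.7%, 31.1% and 54.9% of the other endothelial cells, taking the libraries as E15.5, E17.5, P0 and transplant. Hey1 was detected in 31.9%, 9.18%, 19.1% and 2.68% of epithelial cells, so neither gene was particular to the selected cells. Gja5 was detected in 1.42%, 0.197%, 0.315% and 1.01% of epithelial cells.

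The selected cells were split by connexin into 352 Gja5-detected cells (27.3%), 537 cells with Gja4 and no Gja5 (41.6%, called Gja4-only), and 401 cells with neither (31.1%). Gja5-detected cells were 38.1%, 26.8%, 18.97% and 37.4% of the selected cells in that order of libraries. Gja4-only cells were 35.6%, 39.0%, 37.8% and 51.5% of them, and cells with neither connexin were 26.3%, 34.2%, 43.3% and 11.1%. Of the selected cells, the P0 library held the lowest share with Gja5 and the highest share with neither connexin. After thinning, the Gja5-detected share was 39.5%, 31.0%, 19.6% and 38.2%, with P0 again lowest. Both connexins are in the rule, so these shares also describe the rule and are not findings. Sox17 and Hey1 alone brought in 31, 77, 248 and 39 of the selected cells. Of endothelial cells, Gja5-detected cells were 45 of 538, 62 of 529, 110 of 1129 and 135 of 864, a share lowest at E15.5. Thinned, they were 17 of 186, 31 of 394, 56 of 826 and 68 of 642, a share lowest at P0.

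**Figure D1:**
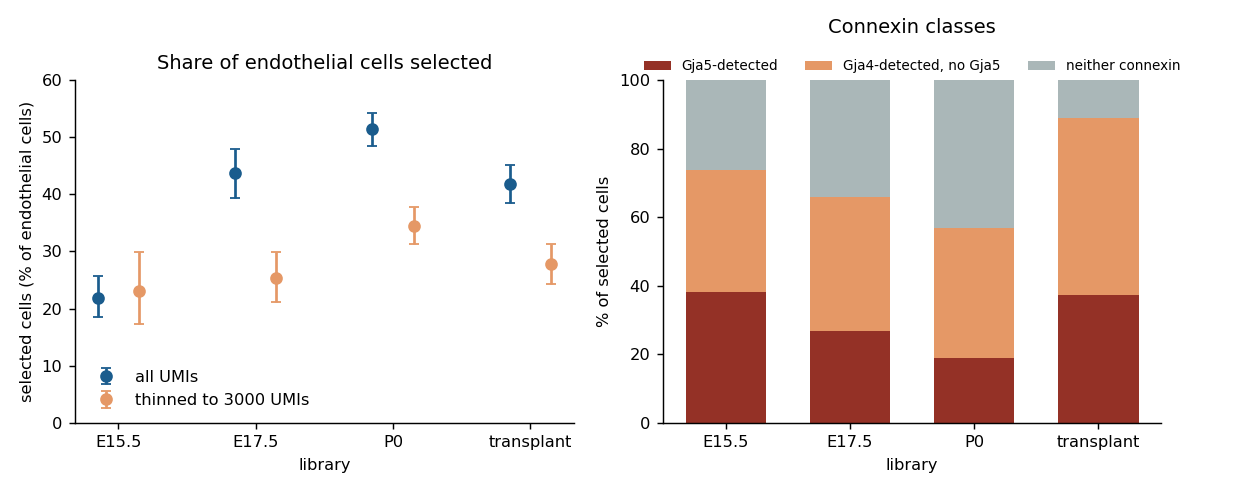
Left, the share of endothelial cells taken by the rule in each library, in percent, with all UMIs and after thinning to 3000 UMIs (points, exact 95% intervals). Right, the connexin classes in percent of the selected cells of each library; the class with neither connexin fills 43.3% at P0 and 11.1% in the transplant.

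Several arterial genes outside the rule followed the connexins, but Dll4 and Gata6 did not pass between Gja4-only cells and cells with neither connexin (below). By the gene Fbln5, the label "arterial" was borne by only some of the selected cells. Fbln5 measured 309.7 CPM (UMIs of a gene scaled to a common total of UMIs) in E15.5, 553 in E17.5, 708 in P0 and 724 in transplant Gja5-detected cells, after all UMIs of a class were summed within a library. It measured 21.0, 106, 143 and 136 CPM in Gja4-only cells and 1.30, 5.67, 8.95 and 11.3 CPM in cells with neither connexin, in the same order of libraries, which holds for all lists of 4 values below. The other endothelial cells had 18.0, 5.62, 21.9 and 43.3 CPM of Fbln5. In every library the connexin-undetected selected cells had less Fbln5 than the other endothelial cells or a near-equal level (E17.5), and the classes with a connexin had more. By Fbln5, these 401 cells go against the label. By Dll4, another arterial gene outside the rule, they did not lie below Gja4-only cells in each library. Levels of Dll4 in the other endothelial cells are not given here. The 401 cells are called by their rule alone.

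Some libraries and cells stand apart. The 12 endothelial markers outside the rule summed to 2928, 5152, 5903 and 7740 CPM in the selected cells against 1022, 4357, 3173 and 5244 CPM in the other endothelial cells, lowest at E15.5 in both classes. Erythroid markers summed to 5259 CPM in the selected cells at E15.5, of which Gja5-detected cells had 15596 CPM and Gja5-undetected cells 753, and to at most 269 CPM in the selected cells of the other libraries. Lymphatic markers summed to 1162 CPM in Gja5-detected and 279.8 CPM in Gja5-undetected cells at E15.5, and to at most 112 CPM in either class elsewhere. At least 2 of 6 mural genes were found in 22, 9, 32 and 39 selected cells. Only the P0 library held tdTomato UMIs (8181, in 62.4% of its selected cells), although its label is wild type. Pairs of libraries shared 27 to 108 cell barcodes, and 1 barcode of a selected cell recurred (E15.5 and transplant). Counts of genes in the class splits were therefore repeated without the E15.5 library.

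Gja5-detected cells were compared with Gja5-undetected selected cells to see how the selected cells differ among themselves. In edgeR's quasi-likelihood test with Benjamini-Hochberg adjustment and the library as block, 448 genes were higher (4.59% of 9762 tested) and 406 lower (4.16%) in Gja5-detected cells, 8.75% in all; without the E15.5 library the 2 directions together held 637 genes, without E17.5 226 and without P0 354, against 854. A cell is more likely to show Gja5 when it is deeper, so the split is not independent of depth, although the Gja5-detected cells were the shallower ones (medians of 27603, 11706, 9536 and 7789 UMIs). With every cell thinned to 3000 UMIs before the rule and the split, 80 genes were higher (2.61% of 3064) and 53 lower (1.73%). Of the higher genes, 244 were still tested, 238 kept their direction and 72 passed; of the lower genes, 178 were tested, 174 kept their direction and 41 passed.

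A further split, added after the data were seen, set Gja4-only cells against cells with neither connexin. There 349 genes were higher (3.8% of 9189) and 222 lower (2.42%), 6.21% in all. Both directions together held 473 genes without the E15.5 library, 234 without E17.5 and 281 without P0, against 571 with all libraries. Thinned, 105 genes were higher (3.11% of 3379) and 52 lower (1.54%), from 3 libraries.

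Genes of the elastic vessel wall were higher in Gja5-detected cells. Of 29 vessel wall matrix genes tested, 14 were higher and 3 lower, with a median log2 fold change of 0.66 against -0.01 over all genes. Without the E15.5 library 16 were higher and 1 lower. Eln, which encodes elastin, had 161, 1266, 1920.5 and 708 CPM in Gja5-detected cells, against 5.39, 27.6, 43.5 and 76.7 CPM in Gja5-undetected cells. The classes did not overlap: the lowest Gja5-detected value, at E15.5, lay above the highest undetected value, in the transplant. The log2 fold change of Eln was 4.72 ± 0.35 (SE, n = 4 libraries; edgeR adjusted p = 3.36e-05). Fbln5, at the levels given above, differed by 3.42 ± 0.23 (edgeR adjusted p = 2.02e-05), and Fbln2, a fibulin of the same fibres, by 2.82 ± 0.29 (adjusted p = 0.000277, 4 of 4 libraries). Mgp, an inhibitor of wall calcification, had 37.8, 743, 804 and 354 CPM in Gja5-detected cells and 17.7, 12.9, 26.1 and 56.8 CPM in Gja5-undetected cells, so that its E15.5 Gja5-detected value lay within the range of the undetected class. Its log2 fold change was 3.78 ± 0.58 (edgeR adjusted p = 0.00339). Lox, which crosslinks elastin, and Htra1, a secreted protease, each had a log2 fold change of 3.49 and were higher in 4 of 4 libraries.

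The same wall genes separated the Gja4-only cells from those with neither connexin. In that split 11 of 26 matrix genes were higher and 2 lower, with a median log2 fold change of 0.67 against -0.01 over all genes. Eln had 8.04, 52.7, 93.7 and 88.5 CPM in Gja4-only cells, against 2.60, 5.67, 8.95 and 20.3 CPM in cells with neither connexin, a log2 fold change of 3.01 ± 0.23 (edgeR adjusted p = 4.89e-06). Fbln5 differed by 3.99 ± 0.17 (edgeR adjusted p = 8.62e-09) and Fbln2 by 3.93 ± 0.26 (edgeR adjusted p = 1.16e-06). Eln thus ordered the 3 classes in the same way in each library, with Gja5-detected cells at the top, Gja4-only cells between and cells with neither connexin at the bottom.

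**Figure D2:**
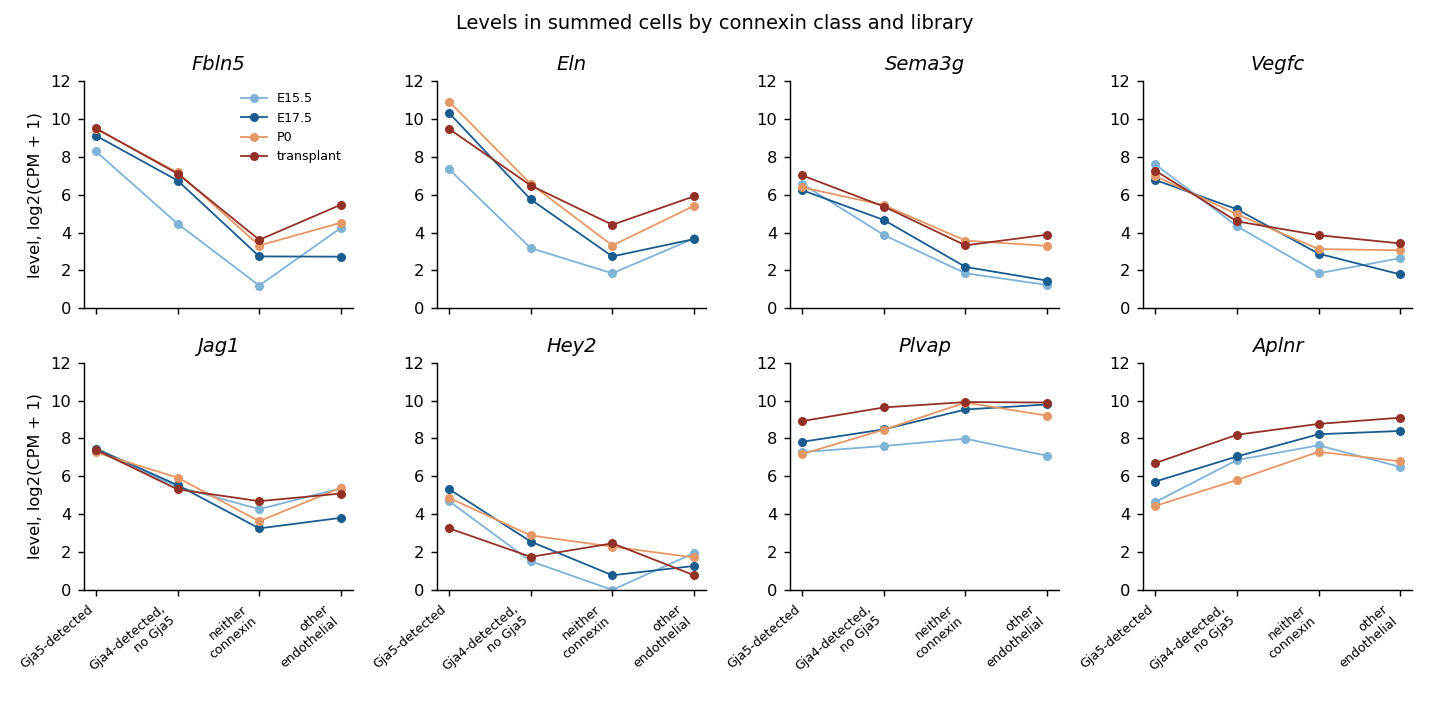
Levels of 8 genes, as log2(CPM + 1) of summed cells, in Gja5-detected, Gja4-only, connexin-undetected selected cells and other endothelial cells; each line is 1 library. Fbln5, Eln, Sema3g, Vegfc and Jag1 step down from left to right over the 3 selected classes, whereas Plvap and Aplnr step up in all 4 libraries.

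Notch ligands and a Notch target were also higher in Gja5-detected cells. Of 17 Notch pathway genes tested, 6 were higher and 1 lower, and the counts were also 6 and 1 without the E15.5 library. The ligand gene Jag1 had 161, 175, 153 and 168 CPM in Gja5-detected cells, against 30.7, 25.7, 31.1 and 36.2 CPM in Gja5-undetected cells. These values were nearly level across the libraries within each class, and the log2 fold change was 2.36 ± 0.12 (edgeR adjusted p = 1.91e-06). The ligand gene Dll4 had 116, 199, 271 and 261 CPM in Gja5-detected cells and 39.3, 88.1, 180.4 and 105 CPM in Gja5-undetected cells, a log2 fold change of 1.10 ± 0.15 (edgeR adjusted p = 0.00138). The target gene Hey2 had 24.7, 38.9, 28.0 and 8.52 CPM in Gja5-detected cells, against 0.951, 2.65, 4.88 and 2.73 CPM, and differed by 3.02 ± 0.38 (edgeR adjusted p = 0.00105). Its transplant value was the lowest of the Gja5-detected class. Hes1, another Notch target, was the gene below, at -0.62 ± 0.12 (edgeR adjusted p = 0.0115, lower in 4 of 4 libraries), and did not pass without E17.5 or without P0.

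In the Gja4 split Jag1 passed and Dll4 did not. Jag1 was higher in Gja4-only cells than in cells with neither connexin, by 1.85 ± 0.24 on the log2 scale (edgeR adjusted p = 0.000539). Dll4 had 48.9, 100.5, 171 and 102 CPM in Gja4-only cells and 29.2, 77.3, 187 and 119 CPM in cells with neither, a log2 fold change of 0.12 ± 0.14 (edgeR adjusted p = 0.713), higher in 2 of 4 libraries. Hes1 was lower again in Gja4-only cells, at -0.38 ± 0.08 (edgeR adjusted p = 0.00963), but did not pass without E17.5. Cells with neither connexin could enter only with 2 of Sox17, Hey1 and Bmx. With Hey1 not counted in the rule, 0, 2, 3 and 1 of them remained. Nearly all of this class, which is also part of the Gja5-undetected class, was thus chosen by a UMI of Hey1, a Notch target. The part of this choice in the differences of Notch genes was not tested.

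Secreted guidance and growth factors formed a further group. Of 26 guidance and growth factor genes tested, 10 were higher and 1 lower in Gja5-detected cells. Without the E15.5 library 9 were higher, and without E17.5 5 were. Vegfc, a lymphatic and vascular growth factor, had 193, 108, 125 and 153 CPM in Gja5-detected cells, against 11.1, 20.4, 16.9 and 21.4 CPM in Gja5-undetected cells, and differed by 3.01 ± 0.21 on the log2 scale (edgeR adjusted p = 2.02e-05). Cxcl12, the ligand of CXCR4, had 622, 654, 424 and 459 CPM, against 37.1, 139.9, 61.1 and 238 CPM. The Cxcl12 classes did not overlap, but the transplant Gja5-undetected cells came nearest to the Gja5-detected ones. Its log2 fold change was 2.43 ± 0.36 (edgeR adjusted p = 0.00272). Sema3g, a semaphorin of arterial endothelium, had 93.8, 74.3, 82.5 and 128 CPM, against 8.24, 13.2, 23.8 and 35.0 CPM in Gja5-undetected cells (2.26 ± 0.22, edgeR adjusted p = 0.000271). The receptor gene Cxcr4 (1.78), the ephrin gene Efnb2 (0.96) and the netrin receptor gene Unc5b (0.83) had smaller log2 fold changes, each higher in 4 of 4 libraries and past the threshold. Unc5b did not pass without E15.5 or without E17.5.

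Among transcription factor genes, 7 of 28 were higher and 2 lower in Gja5-detected cells. Without E17.5 3 were higher and 0 lower, and without P0 4 and 0. Gata6 had 56.7, 57.8, 44.5 and 22.3 CPM in Gja5-detected cells, against 5.70, 9.83, 14.6 and 1.56 CPM in Gja5-undetected cells, with no overlap (2.47 ± 0.29 on the log2 scale, edgeR adjusted p = 0.00059). In the Gja4 split Gata6 differed by -0.20 ± 0.27 (edgeR adjusted p = 0.782). Mecom, a zinc-finger factor gene, was higher in both splits, by 1.52 ± 0.10 (edgeR adjusted p = 2.02e-05) and 1.42 ± 0.13 (edgeR adjusted p = 3.75e-05). Tox2 (2.46), Prdm16 (1.49) and the flow-induced factor gene Klf2 (0.82) were higher in Gja5-detected cells. Nr2f2, which encodes the venous factor COUP-TFII, had 108, 31.8, 27.2 and 34.7 CPM in Gja5-detected cells, against 131, 101, 66.4 and 42.0 CPM in Gja5-undetected cells. Those ranges overlapped, each library had less in the Gja5-detected class, and the log2 fold change was -0.82 ± 0.21 (edgeR adjusted p = 0.0347). Nr2f2, Prdm16 and Klf2 did not pass without E17.5 or without P0.

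Vasoactive and flow genes were mixed, with 11 of 27 higher and 3 lower in Gja5-detected cells. Without E17.5 4 were higher and 0 lower, and without the transplant 18 and 3. Aqp1, a water channel, had 375, 577, 999.9 and 103 CPM in Gja5-detected cells, against 26.6, 92.3, 153 and 61.9 CPM in Gja5-undetected cells (2.48 ± 0.34, edgeR adjusted p = 0.00164). Its transplant value was the lowest of the Gja5-detected class and lay within the undetected range. Ace, which encodes angiotensin-converting enzyme, had 15.3, 29.5, 35.5 and 52.4 CPM, against 1.90, 3.78, 2.29 and 13.2 CPM (2.84 ± 0.31, edgeR adjusted p = 0.000451). Edn1, the endothelin 1 gene, was higher by 1.87 ± 0.33 (edgeR adjusted p = 0.0064) and Dhh by 2.09, while the prostaglandin synthase gene Ptgs1 was lower, at -1.92 ± 0.38 (edgeR adjusted p = 0.011). Edn1 and Ptgs1 did not pass without E17.5.

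Among capillary and venous genes, 1 of 17 was higher and 4 were lower in Gja5-detected cells, and 12 did not pass. The counts were 0 higher and 5 lower without the E15.5 library, 0 and 2 without E17.5 and 3 and 4 without the transplant. Plvap had 154, 225, 144 and 482 CPM in Gja5-detected cells, 193, 356, 351 and 795 CPM in Gja4-only cells and 252, 737, 951 and 968 CPM in cells with neither connexin. The order of these classes was the same in every library. Plvap differed by -1.24 ± 0.23 between Gja5-detected and Gja5-undetected cells (edgeR adjusted p = 0.00791; 0.0849 without E17.5) and by -0.81 ± 0.15 in the Gja4 split (edgeR adjusted p = 0.00592). Aplnr, the apelin receptor gene of veins and capillaries, had 24.0, 51.9, 20.6 and 103 CPM in Gja5-detected cells, against 155, 219.7, 115 and 316 CPM in Gja5-undetected cells (-2.15 ± 0.17, edgeR adjusted p = 5.13e-05). Rgcc, a cell-cycle regulator gene of capillaries, was lower by 1.81 on the log2 scale (-1.81 ± 0.25, edgeR adjusted p = 0.0016).

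The genes with the largest log2 fold changes in the Gja5 split included some outside these groups. Gkn3, a gastrokine gene, had 19.6, 99.0, 50.3 and 106 CPM in Gja5-detected cells, against 0, 5.29, 0.143 and 0 CPM in Gja5-undetected cells. Vwf, the von Willebrand factor gene, had 28.4, 124, 67.6 and 15.7 CPM, against 0.634, 3.03, 1.72 and 0.389 CPM (5.26 ± 0.22, edgeR adjusted p = 5.42e-07). Every Gja5-detected value of Gkn3 and Vwf lay above every Gja5-undetected value of the same gene. Ptchd1 and the phosphodiesterase gene Pde3a completed the highest 8 beside Eln, Mgp, Lox and Htra1. The lowest 8 were Irx5, F8, Car8, Irx3, Il33, Aplnr, Slc38a4 and Ptgs1, between -2.35 and -1.92 on the log2 scale. Of these, Car8, Il33 and Slc38a4 did not pass without P0, nor Slc38a4 and Ptgs1 without E17.5. F8, the coagulation factor VIII gene, had 1.45, 11.8, 4.12 and 1.97 CPM in Gja5-detected cells, against 7.92, 44.3, 39.4 and 4.28 CPM in Gja5-undetected cells. Irx3, a homeobox gene, had 11.6, 34.2, 16.5 and 22.3 CPM, against 76.4, 122, 98.0 and 78.6 CPM, with no overlap.

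The leading genes of the Gja4 split were not all particular to it. Fbln5 and Fbln2 were among them and were also higher in the Gja5 split. Stmn2 was also among the highest genes of the selected over the other endothelial cells (below). Stmn2, a microtubule regulator known from neurons, had 66.8, 175, 139 and 35.3 CPM in Gja4-only cells, against 3.25, 2.84, 5.08 and 4.50 CPM in cells with neither connexin (4.85 ± 0.22, edgeR adjusted p = 1.86e-08). S100a4, a calcium-binding protein gene, had 37.1, 49.4, 111 and 121 CPM in Gja4-only cells, against 0.650, 1.42, 7.98 and 18.0 CPM (3.86 ± 0.25, edgeR adjusted p = 6.72e-07). S100a4 did not pass in the Gja5 split (0.81 ± 0.31, edgeR adjusted p = 0.143). Pi16, Ptprr, Dlk1 and Tgfb2 followed, with log2 fold changes between 3.499 and 3.58. Samsn1, Car8, Gpr182, Kcnj8, Abcc9, Fam49a and F8 were among the lowest, between -2.08 and -1.37; Abcc9, Fam49a and F8 did not pass without P0. Of 9 glomerular endothelial genes tested, 6 were higher in Gja4-only cells and 0 lower, with 3 higher without E17.5 or without P0, and thinned 0 of 4. In the Gja5 split 1 of 10 was higher, and 4 without the transplant. The difference between the splits was not tested.

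**Figure D3:**
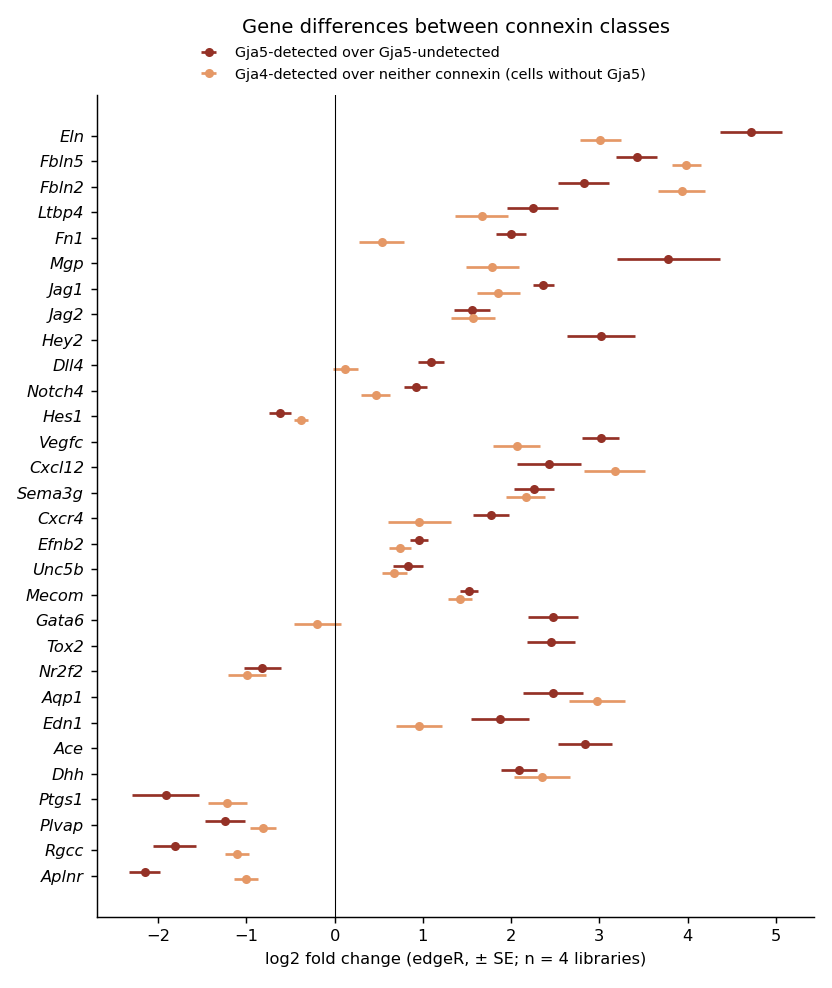
Log2 fold changes (edgeR, points with SE, n = 4 libraries) of 30 genes between Gja5-detected and Gja5-undetected cells and between Gja4-only cells and cells with neither connexin. Gata6 stands at 2.47 in the first and at -0.20 in the second, while Fbln5 stands at 3.42 and 3.99.

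Genes of other cells differed with the Gja5 split. Of 7 mural genes tested, 3 were higher in Gja5-detected cells (Ren1, 1.89; Rgs5, 1.89; Pdgfrb, 1.60) and 0 lower. Without E17.5 1 of 9 was higher. Ren1 did not pass without E17.5 or without the transplant, and Rgs5 did not pass without E15.5, without E17.5 or without P0. The whole list of 12 mural markers summed to 207, 323, 243 and 1001 CPM in Gja5-detected cells, against 129, 137, 216 and 464 CPM in Gja5-undetected cells, and no marker of it was at 0 in the selected cells. Ren1, the renin gene, had 402 CPM in transplant Gja5-detected cells, against 54.9 CPM in transplant Gja5-undetected cells. Without cells that had 2 or more mural genes, 879 genes passed in the Gja5 split, against 854 with them. The part of mural transcripts in single genes was not tested. The dissociation list of early-response and heat-shock genes had 9 of 21 higher and 0 lower in Gja5-detected cells (3 higher without E17.5 and 5 without P0), with sums of 2638, 15365, 25907 and 12085 CPM against 2165, 8818, 16392 and 9568 CPM in Gja5-undetected cells. Whether it bears on Klf2 was not tested.

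Against the other endothelial cells, the selected cells had 1187 genes higher (10.5% of 11252) and 1162 lower (10.3%), 20.9% in all, by edgeR's quasi-likelihood test with the library as block. This comparison lies close to the rule, and its sides differed in depth and in RNA of other cells: the 12 epithelial markers summed to 280.3, 98.8, 153 and 337 CPM in selected cells against 782, 304, 1353 and 1194 CPM in other endothelial cells, and 11 of 12 were lower. Thinned, 349 genes were higher (4.84% of 7208) and 318 lower (4.41%), and of the 1082 higher genes still tested 879 kept their direction and 263 passed. Of the 1162 lower genes 299 were still tested, 226 kept their direction and 27 passed. Without P0 828 genes passed in all, and without E15.5 1725. Of 27 guidance genes 18 were higher and 1 lower, and thinned 11 of 25 were higher and 1 lower. Of 31 matrix genes 13 were higher and 5 lower, and thinned 15 of 25 were higher and 2 lower.

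Gkn3, Tox2 and Stmn2 had the highest fitted differences. Stmn2 had 189, 121, 98.1 and 153 CPM in selected cells, against 4.05, 1.05, 7.19 and 4.76 CPM in other endothelial cells (5.07 ± 0.33 on the log2 scale, edgeR adjusted p = 0.000603). Gkn3 had 5.96, 28.1, 7.58 and 39.3 CPM in selected cells, against 0.0711, 0, 0 and 0 CPM in the others. The other genes at the top were Tox2, Ptprr, Eva1c, Slc10a4, Fbln5, Vegfc, Dusp26, S100a4, Eln, Msx1, Sema3g and Vwf, with log2 fold changes of 2.95 to 5.08; Vwf did not pass without E17.5 or without P0. Among the lowest were Lcn2, Wnt11, Slc22a8, Calb1, Sprr2f, Cyp2j5, Slc22a6, Acsm2 and Fbp2, several of them genes of kidney epithelium. Plvap did not pass (-0.09 ± 0.22, edgeR adjusted p = 0.829), and thinned it was lower in selected cells, at -1.22 (edgeR adjusted p = 1.2e-07).

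Proliferation genes were lower in the cells with connexins. Of 27 tested, 20 were lower and 0 higher in Gja5-detected than in Gja5-undetected cells (background 4.16% lower), with a median log2 fold change of -0.80, and 13 were lower and 0 higher in Gja4-only cells than in cells with neither connexin. In the Gja5 split 24 were lower without the E15.5 library, 5 without E17.5, 13 without P0 and 16 without the transplant, and in the Gja4 split 8 were lower without E15.5 and 4 without E17.5. Thinned to 3000 UMIs, 3 of 7 were lower in the Gja5 split and 2 of 16 in the Gja4 split. Mki67, a marker of cycling cells, was lower by 0.80 on the log2 scale (-0.80, edgeR adjusted p = 0.0037), and the helicase subunit gene Mcm3 by 1.02 (-1.02, edgeR adjusted p = 0.0065).

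Cells were also called cycling when at least 3 proliferation genes had a UMI after thinning to 3000 UMIs. Such cells were 42.2%, 32.2%, 16.5% and 21.4% of Gja5-detected cells, against 66.7%, 64.2%, 33.0% and 35.3% of Gja5-undetected cells. Each library had the lower share in its Gja5-detected cells, by 21.7 ± 8.17 percentage points on average (SD, n = 4 libraries; exact two-sided permutation test, 2 of 16 sign arrangements, the smallest p that 4 libraries allow). Gja4-only cells had 54.8%, 48.8%, 23.2% and 31.6% cycling, against 83.3%, 79.7%, 41.6% and 52.8% of cells with neither connexin, again lower in 4 of 4 libraries (24.8 ± 5.98 points, with the same smallest exact p). These classes were set at full depth. Thinned before the rule, Gja5-detected cells were 15.7 points lower, in 4 of 4 libraries. At E15.5 the shares were 29.4% of 17 against 34.6% of 26 cells. Not thinned, they were 15.9 points lower, in 3 of 4 libraries, with E15.5 reversed (95.6% against 91.8%). Gja4-only cells were 24.3 points lower thinned before the rule (3 E15.5 cells with neither connexin) and 17.9 not thinned. Both held in 4 of 4 libraries. All selected cells had 57.3%, 55.5%, 29.98% and 30.2%, against 72.2%, 59.3%, 38.5% and 25.3% of the other endothelial cells (exact two-sided permutation p = 0.375). This comparison depended on the depth at which the rule was applied. With every cell thinned before the rule, 26.9% of selected and 51.8% of other endothelial cells were cycling on average, lower in 4 of 4 libraries (the smallest exact p). In the fits, 0 of 27 proliferation genes passed between selected and other endothelial cells, and 23 were lower and 0 higher when thinned. Cells with neither connexin were the deepest class, with medians of 40494, 15812, 14145 and 10290 UMIs before thinning.

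**Figure D4:**
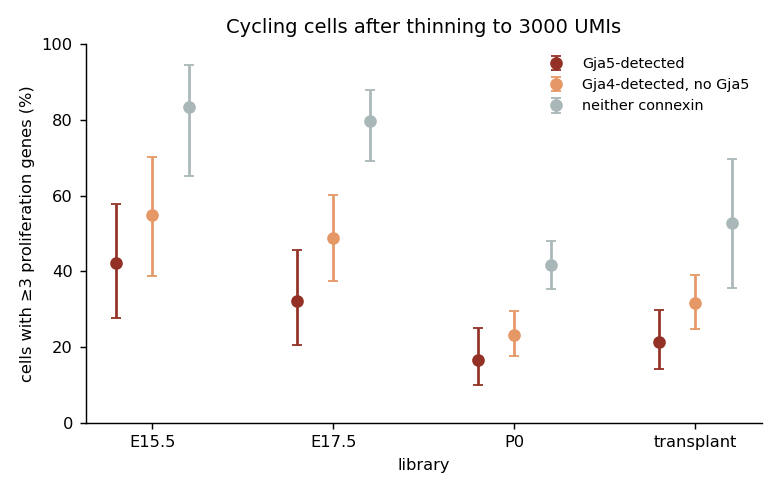
Percent of cells with at least 3 proliferation genes after thinning to 3000 UMIs, in the 3 connexin classes of each library, with exact 95% intervals. Within each library Gja5-detected cells lie lowest, Gja4-only cells between and connexin-undetected cells highest, at E15.5 42.2%, 54.8% and 83.3%.

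The libraries were then set side by side over the selected cells as ratios of CPM, without a test, and a gene was counted when the interval bound nearest 1 lay past 2-fold. Between P0 and E15.5, 695 genes were higher at P0 (6.09% of 11418) and 464 lower (4.06%), 10.2% in all. Between the transplant and P0, 618 were higher in the transplant (5.45% of 11345) and 345 lower (3.04%), 8.49% in all. Between the transplant and E17.5, which share a C57BL/6 background by label, 429 were higher in the transplant (3.99% of 10763) and 187 lower (1.74%), 5.72% in all, and between E17.5 and E15.5 378 were higher at E17.5 (3.49% of 10840) and 231 lower (2.13%), 5.62% in all. The median gene had a log2 ratio of 0.30 between the transplant and P0, and of 0.14 between the transplant and E17.5. Divided by the median ratio, 326 genes were higher in the transplant than at P0 and 583 lower, so that the balance of directions reversed. Divided likewise, 343 were higher in the transplant than at E17.5 and 265 lower, 780 higher and 361 lower at P0 than at E15.5, and 317 higher and 288 lower at E17.5 than at E15.5. Ratios below are not divided unless stated. These ratios share libraries. The connexin classes had different shares in the libraries. For some genes, values of Gja5-detected cells alone are therefore given beside those of all selected cells. The other ratios are those of all selected cells, with their mix of classes. In Gja5-detected cells only, 137 of the single-gene ratios checked kept direction and call, 42 lost the call and 2 reversed.

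Fetal growth genes were low in the transplant. Against P0, 8 of 13 were past 2-fold lower in the transplant and 0 higher, and against E17.5 10 of 13 were lower and 0 higher. H19, an imprinted noncoding RNA, had 2099.6, 2078, 1451 and 35.7 CPM, lowest in the transplant. It was 40.7-fold (34.6 to 48.2) lower in the transplant than at P0, and Gja5-detected cells had 35.4 CPM in the transplant and 2004 CPM at P0. Igf2, the imprinted growth factor beside H19, had 1071, 2531, 1776 and 175 CPM and was 10.2-fold (9.43 to 10.98) lower in the transplant than at P0. The other endothelial cells had 127 CPM of Igf2 in the transplant and 1329 CPM at P0, so that the difference was not confined to the selected cells. Igf2bp1, which encodes an RNA-binding protein of fetal tissues, had 108, 44.1, 27.1 and 5.13 CPM and was lowest in the transplant. Dlk1, an imprinted ligand gene, had 9.71, 221, 201 and 47.9 CPM and thus stood highest at E17.5 and P0.

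Flow and vasoactive genes were higher at P0 than at E15.5 in 12 of 29 cases and lower in 0. Klf2 had 418, 1684, 1547 and 2959 CPM and was 3.70-fold (3.53 to 3.89) higher at P0 than at E15.5. Edn1 had 42.8, 78.8, 218 and 46.4 CPM, 5.09-fold (4.38 to 5.93) higher at P0 than at E15.5 and 4.69-fold (4.04 to 5.48) lower in the transplant than at P0. P0 held the highest Edn1 level of the 4 libraries, also in Gja5-detected cells (122, 183, 348 and 85.9 CPM). Plat, the tissue plasminogen activator gene of glomerular endothelium, had 21.4, 153, 353 and 207 CPM, 16.5-fold (13.5 to 20.4) higher at P0 than at E15.5. Aqp1 had 132, 209.9, 278 and 77.2 CPM and was 3.60-fold (3.20 to 4.07) lower in the transplant than at P0.

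For Eln the ratio depended on the cells counted. All selected cells had 52.5, 328, 321 and 312 CPM, so that the transplant was 0.970-fold (0.907 to 1.04) the P0 level. In Gja5-detected cells, however, Eln was 0.369-fold (0.343 to 0.396) the P0 level, at 708 CPM in the transplant and 1920.5 CPM at P0, and in Gja5-undetected cells it was 1.76-fold (1.47 to 2.12) that level. Mgp was 1.19-fold (1.08 to 1.30) the P0 level in all selected cells and 0.440-fold (0.395 to 0.489) in Gja5-detected cells. The median gene stood at 1.24-fold in all selected cells, 1.18-fold in Gja5-detected and 1.23-fold in Gja5-undetected cells, so that in all selected cells the interval of Eln lay below that median and the interval of Mgp included it. Ltbp4, a binding protein of latent TGF-β in elastic fibres, was 4.69-fold (4.16 to 5.29) higher in the transplant than at P0 in all selected cells, and 1.98-fold (1.68 to 2.34) in Gja5-detected cells. Of 32 matrix genes, 7 were past 2-fold higher in the transplant than at P0 and 0 lower, or 3 and 1 when divided by the median ratio.

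The SOXF genes outside the rule differed in opposite directions. Sox18 had 109.7, 46.4, 44.2 and 309 CPM and was 6.996-fold (6.22 to 7.88) higher in the transplant than at P0, and 8.36-fold (6.25 to 11.4) in Gja5-detected cells. Sox7 had 49.9, 90.8, 113 and 25.6 CPM and was 4.41-fold (3.60 to 5.45) lower in the transplant than at P0. The other endothelial cells had 224 CPM of Sox18 in the transplant and 19.9 CPM at P0, and 33.3 CPM of Sox7 in the transplant and 58.3 CPM at P0. Hes1 had 355, 670.4, 1412 and 412 CPM, highest at P0 and 3.43-fold (3.26 to 3.61) lower in the transplant than at P0.

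Of 10 glomerular endothelial genes, 6 were past 2-fold higher at P0 than at E15.5 and 0 lower. In the transplant 4 of 10 were higher than at P0 and 1 lower. The transplant and P0 also differ in strain, site and host, so their ratio is not one of age alone. The median log2 ratio of this list between the transplant and P0 was 1.15 in all selected cells and 0.53 in Gja5-detected cells. Divided by the median ratio, 3 were higher in the transplant than at P0 and 1 lower. Ehd3, a membrane-trafficking gene of glomerular capillaries, had 59.4, 386, 344 and 1292 CPM in the selected cells. It was 5.80-fold (5.11 to 6.59) higher at P0 than at E15.5 and 3.75-fold (3.58 to 3.93) higher in the transplant than at P0. In Gja5-detected cells the ratio of transplant to P0 was 2.22 (2.03 to 2.43). Cd300lg, a capillary endothelial mucin gene, had 2.21, 29.2, 29.9 and 232 CPM, 7.75-fold (6.73 to 8.96) higher in the transplant than at P0.

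**Figure D5:**
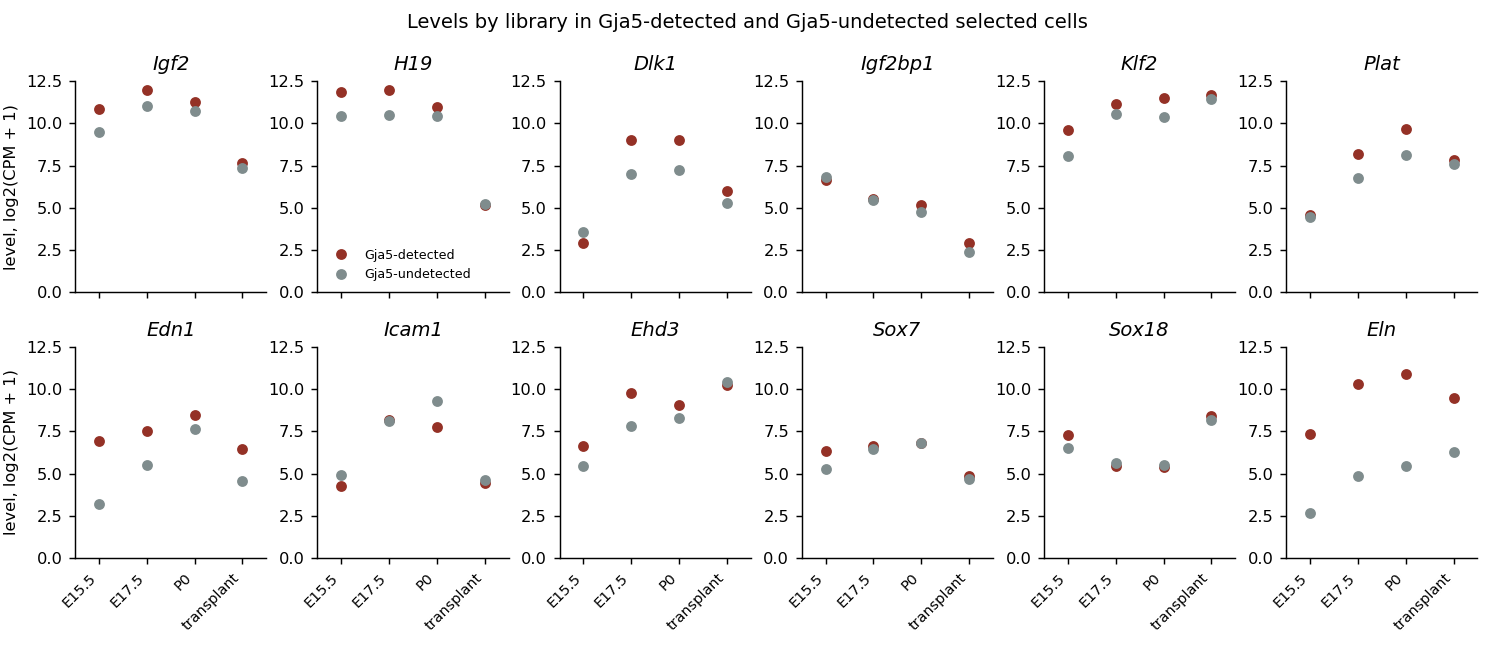
Levels of 12 genes, as log2(CPM + 1) of summed cells, in each library for Gja5-detected and Gja5-undetected selected cells. Igf2 and H19 are lowest in the transplant in both classes, and Eln in the transplant lies below P0 in Gja5-detected cells (708 and 1920.5 CPM) but above it in Gja5-undetected cells (76.7 and 43.5 CPM).

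Other gene groups differed between the same libraries. Of 27 interferon-response genes, 26 were past 2-fold higher at P0 than at E15.5, as were 20 of 21 dissociation genes. Isg15, an interferon-induced gene, had 2.21, 280.1, 207 and 125 CPM, and Hspa1a, a heat-shock gene, 1.32, 131, 1731 and 123 CPM. The dissociation genes summed to 2308, 10408, 17801 and 10506 CPM in selected cells and to 2926, 7264, 12045 and 9587 CPM in the other endothelial cells, with E15.5 lowest in both. Icam1, a leukocyte adhesion gene, had 25.6, 281, 563 and 22.7 CPM. Tiparp, a target of the aryl hydrocarbon receptor, had 6.84, 61.9, 427 and 9.52 CPM, and Cyp1a1, another such target, 29.2 CPM at P0 and 0 in the other libraries. The part of handling in the differences between libraries was not tested.

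Antigen-presentation genes and transcripts known from other cells also differed between the libraries. In the transplant, Cd74, an antigen-presentation gene, had 105 CPM, against 0.611 CPM at P0, and H2-Aa had 33.7 CPM against 0.489 CPM. The cells these transcripts came from were not tested. Umod, a gene of the loop of Henle, had 64.7 CPM in the transplant and 1.47 CPM at P0, with 159 CPM in transplant Gja5-detected cells. Of 11 mural genes, 8 were past 2-fold higher in the transplant than at P0 and 1 lower, or 7 and 1 when divided by the median ratio. Ren1 had 184 CPM in the transplant and 18.0 CPM at P0. At E15.5, Ccl21a, a lymphatic chemokine gene, had 412 CPM, against 0, 25.4 and 1.47 CPM in the E17.5, P0 and transplant libraries. Their part in the ratios of other genes was not tested.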

How the data were processed

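The deposited matrices hold whole-number UMI counts per gene and cell, not normalized, which the authors made with Cell Ranger 3.1.0 on GRCm38, per the submitters' processing notes; the matrix headers name software 3.0.2 (E15.5, P0) and 3.1.0 (E17.5, transplant), per the file headers. Libraries held 42430540 to 99068204 UMIs in 4158 to 10810 barcodes. Doublets were kept; leaving out the cells scored highest by Scrublet (scanpy 1.11.5) was an alternative. Counts were summed per library and class and tested with edgeR 4.0.16 (R 4.3.3), TMM, filterByExpr and the library as block, since both sums of a pair come from 1 library. Called genes have an adjusted p under 0.05. The 8 rule genes were never counted as called. Ratios between libraries used genes with at least 20 UMIs over both and exact conditional binomial 95% intervals. Scripts were checked on simulated counts. Genes named beyond the 26 lists were the 14 highest and 10 lowest (selected against other), 8 and 8 (class splits) or up to 6 and 6 (ratios) with at least 50 UMIs; some genes the rule named are not reported here. Members and lists were chosen with earlier results of these data known. RefSeq windows and GENCODE M21 positions came from the reference tables. DESeq2 1.42.0, thinning, other cutoffs and leaving out each library were alternatives.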

Additional observations from a re-analysis of the deposited data

Results flagged for a closer look

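For 3 genes the ratio of Gja5-detected to Gja5-undetected cells lay above 1 in some libraries and below 1 in another; the difference between libraries was not tested, and intervals cover counting error only. Cav1, the caveolin 1 gene, had ratios of 3.88 (3.33 to 4.52) at E15.5, 2.71 (2.39 to 3.06) at E17.5 and 2.31 (2.12 to 2.53) at P0, but 0.885 (0.795 to 0.984) in the transplant, where Gja5-undetected cells held 395 CPM of Cav1, more than in the other libraries. Ehd3 had ratios of 2.31 (1.81 to 2.96), 3.93 (3.52 to 4.38) and 1.74 (1.59 to 1.90) at E15.5, E17.5 and P0, and 0.889 (0.840 to 0.941) in the transplant. Ccl21a, a lymphatic chemokine gene, had a ratio of 5.05 (4.58 to 5.58) at E15.5, where lymphatic markers summed to 1162 CPM in Gja5-detected cells, and 0 (upper bound 0.103) at P0.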

How the results depend on the processing

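Counts of genes depended on the depth used, the rule and the block. Selected against other endothelial cells, 2349 genes passed, 18 with no replicate block, 667 thinned, 644 with all 3 endothelial genes required and 828 to 1877 with 1 library left out. In the Gja5 split, 854 genes passed, 514 with DESeq2, 1332 with no filter, 36 with no replicate block, 133 thinned, 458 with Hey1 not counted and 226 to 813 with 1 library left out. In the Gja4 split, 571 passed, 238 with DESeq2, 961 with no filter, 1 with no replicate block, 157 thinned and 234 to 741 with 1 library left out (234 without E17.5, 281 without P0). At an unadjusted p under 0.05 the fits with no block called 1232, 655 and 291 genes. The alternatives with Hey1 not counted, all 3 endothelial genes, 1 connexin class and the Gja4 split itself were chosen after seeing the data. Genes past 2-fold between P0 and E15.5 were 1159 in the main count, 175 thinned, 744 with at least 3 of 5 rule genes and 529 in Gja5-detected cells only; between the transplant and P0 963, 241, 568 and 382, with 633 when Hey1 was not counted; between the transplant and E17.5 616, 117, 381 and 289; between E17.5 and E15.5 609, 84, 377 and 306. Fewer cells or UMIs enter these alternatives. The selected share at E15.5, E17.5, P0 and in the transplant was 13.8%, 27.1%, 30.9% and 26.8% with at least 3 of 5 genes, 15.1%, 27.8%, 27.5% and 35.2% with Hey1 not counted, 40.8%, 49.3%, 61.9% and 48.0% with all 3 endothelial genes, and thinned 25.4%, 34.5% and 27.7% at E17.5, P0 and in the transplant. The cycling difference of selected minus other cells was -5.55 points as reported, 1.02 not thinned, -24.9 thinned before the rule, -17.7 with Hey1 not counted, -16.1 with at least 3 of 5 genes and -9.28 with all 3 endothelial genes. Reversed log2 values were those of Plvap, P0 over E15.5, at -0.10 in Gja5-detected cells; Mgp, E17.5 over E15.5, at -0.46 in Gja5-undetected cells; Gpr182, transplant over P0, at 0.040 with at least 3 of 5 genes, 0.11 with Hey1 not counted and 0.31 in Gja5-detected cells; and, thinned, selected over other cells, Apln at -0.76, Col4a1 at -0.014, Fabp5 at -0.29 and Gpihbp1 at -0.027. Where no construction is named, the cause was not tested. Of the values of single genes under alternatives, 2631 of the edgeR comparisons kept direction and call and 475 lost the call; of the ratios, 2489 kept both and 240 lost the call.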
